A study of Mus musculus with 8 samples.

Results

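Transcripts of NRF2, of its inhibitor KEAP1 and of 8 of their antioxidant target genes were measured by RNA-seq in mouse bone marrow dendritic cells (BMDCs), antigen-presenting cells grown from bone marrow. The 10 genes were chosen by name from the 55376 genes of the deposited count table, and all 10 were found and tested. Cells had been exposed overnight to heat-inactivated bacteria of the genus Prevotella, either P. melaninogenica (PM) or P. heparinolytica (PH). Count columns of 3 PM samples and 3 PH samples were compared, with replicates 1, 3 and 4 in each treatment after the submitters' sample id. Untreated cells were not analysed here, so the values compare one bacterium with the other and neither with resting cells. The mouse strain, age and sex, or whether an id stands for an animal or a culture, was not given in the sources used here. Hence p-values rest on the spread among these samples alone, part of which may be technical. The series lists 8 libraries for the 6 count columns, since PM replicate 1 and PH replicate 3 each have a library labelled run 2 beside that of run 1. Within the pairs of ids 1 and 3, run and bacterium cannot be told apart, while both columns of id 4 have run 1 libraries only. Totals lay between 21192990 and 38231719 counts for PM and between 11624367 and 40233148 for PH, the lowest being PH replicate 3, which also had the highest level of the ribosomal RNA locus Gm42418 (4029 CPM, against 878 to 1496 CPM in the other samples). The 10 genes held between 969 counts (Keap1 in PH replicate 3) and 115418 counts (Hmox1 in PH replicate 4) per sample.

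NRF2, the product of Nfe2l2, is a transcription factor that is held in the cytoplasm by KEAP1, an adaptor that hands it to a CUL3 ubiquitin ligase for degradation. Oxidants and electrophiles modify cysteines of KEAP1, NRF2 then accumulates, pairs with small MAF proteins and binds antioxidant response elements. Its targets make and recycle glutathione, reduce thioredoxin and peroxiredoxins, reduce quinones and break down heme. In macrophages and dendritic cells the pathway is known to limit oxidative damage during activation and to restrain inflammatory gene expression. The main control of NRF2 is on protein stability, which transcript levels do not show.

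The promoters are shown because the antioxidant response element is what the target genes are thought to share. RefSeq promoter windows on GRCm38.p6, from 250 bases before to 50 after a transcription start, matched 7 of the 10 members with 9 windows, 3 of them of Txnrd1. The element core was searched on both strands as TGACNNNGC only, so forms with another base in place of its first C were not counted. It was found in 4 of the 9 windows, those of Nfe2l2, Srxn1, Gclm and 1 of Txnrd1, while 12.4% of the 32851 windows in the RefSeq table held it. The AP-1 site TGANTCA, which can overlap the element, was found in 1 member's window, that of Srxn1, at 2 places, while 7.81% of all windows held it. No match of the core in the letters searched overlapped an AP-1 site in these windows. The Srxn1 site at 206 to 212 is followed at once by GC. It reads TGAGTCAGC, which has G where the searched core has its first C, so it was not counted as a core. Matches are in capitals below, and positions count from 1 at the 5′ end of a window. The core stands at positions 11 to 19 in Nfe2l2 (chr2:75704614-75704913, minus strand), 279 to 287 in Srxn1 (chr2:152105274-152105573, plus strand), 117 to 125 in Gclm (chr3:122245307-122245606, plus strand) and 159 to 167 in Txnrd1 (chr10:82858956-82859255, plus strand). In the last 3 of these the core is on the opposite strand. The AP-1 sites of Srxn1 are at 149 to 155 and 206 to 212. A match of letters is not a measured binding site, and elements outside these windows were not searched.
Nfe2l2: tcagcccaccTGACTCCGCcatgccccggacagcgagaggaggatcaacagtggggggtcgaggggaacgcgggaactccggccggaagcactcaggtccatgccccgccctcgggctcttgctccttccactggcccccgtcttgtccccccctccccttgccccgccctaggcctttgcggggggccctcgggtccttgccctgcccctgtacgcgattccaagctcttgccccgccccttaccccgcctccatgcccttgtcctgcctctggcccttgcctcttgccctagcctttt
Srxn1: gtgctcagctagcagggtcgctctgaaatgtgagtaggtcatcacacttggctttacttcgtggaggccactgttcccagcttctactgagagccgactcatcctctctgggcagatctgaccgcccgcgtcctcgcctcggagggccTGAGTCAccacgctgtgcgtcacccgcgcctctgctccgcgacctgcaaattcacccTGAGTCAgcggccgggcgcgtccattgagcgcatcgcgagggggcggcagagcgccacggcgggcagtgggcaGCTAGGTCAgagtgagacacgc
Gclm: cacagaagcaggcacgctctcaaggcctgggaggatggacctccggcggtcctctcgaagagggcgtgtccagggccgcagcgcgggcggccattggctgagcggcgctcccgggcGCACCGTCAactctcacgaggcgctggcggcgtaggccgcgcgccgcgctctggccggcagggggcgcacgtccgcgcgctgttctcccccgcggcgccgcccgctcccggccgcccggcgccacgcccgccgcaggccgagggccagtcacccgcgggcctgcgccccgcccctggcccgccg
Txnrd1: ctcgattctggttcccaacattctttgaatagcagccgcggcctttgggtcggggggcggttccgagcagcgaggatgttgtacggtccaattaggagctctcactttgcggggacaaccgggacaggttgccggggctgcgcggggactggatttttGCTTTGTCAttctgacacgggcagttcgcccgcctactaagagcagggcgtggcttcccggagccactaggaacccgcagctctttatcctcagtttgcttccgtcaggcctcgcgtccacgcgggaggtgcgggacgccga

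The differences between the bacteria were small for all 10 genes, and none passed the test without a block on the sample id. Relative to PH, fitted levels with PM ran from 0.776-fold for Hmox1 to 1.13-fold for Nfe2l2. By edgeR's quasi-likelihood test with Benjamini-Hochberg adjustment over 14382 genes, 0 members passed an adjusted p of 0.05, against 2.34% of all genes (0.702% higher and 1.64% lower with PM). The lowest adjusted p among the members was 0.194. At an unadjusted p under 0.05 there were 4 members (13.1% of all genes), and DESeq2 also passed 0 (4.06% of all genes). With the sample id as a block, which compares PM and PH within each id, 6 of the 10 passed, against 15.3% of all genes. Of these 2 rose with PM, Nfe2l2 and Nqo1 (7.00% of all genes rose), and 4 fell, Keap1, Hmox1, Txnrd1 and Gsr (8.27% fell). Both subunits of the enzyme that starts glutathione synthesis, the cystine transporter and sulfiredoxin passed in neither fit. The members' median log2 fold change with the block was -0.04, beside 0.01 for all genes tested. The labels give the same ids in both treatments without saying what an id stands for. That the ids pair the samples was read from the counts. The blocked fit has 2 residual degrees of freedom per gene, and its errors lean on the spread shared over genes. The shares of all genes include genes with far lower counts than the members, in which small differences are harder to call. Genes of like counts were not compared.

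**Figure D1:**
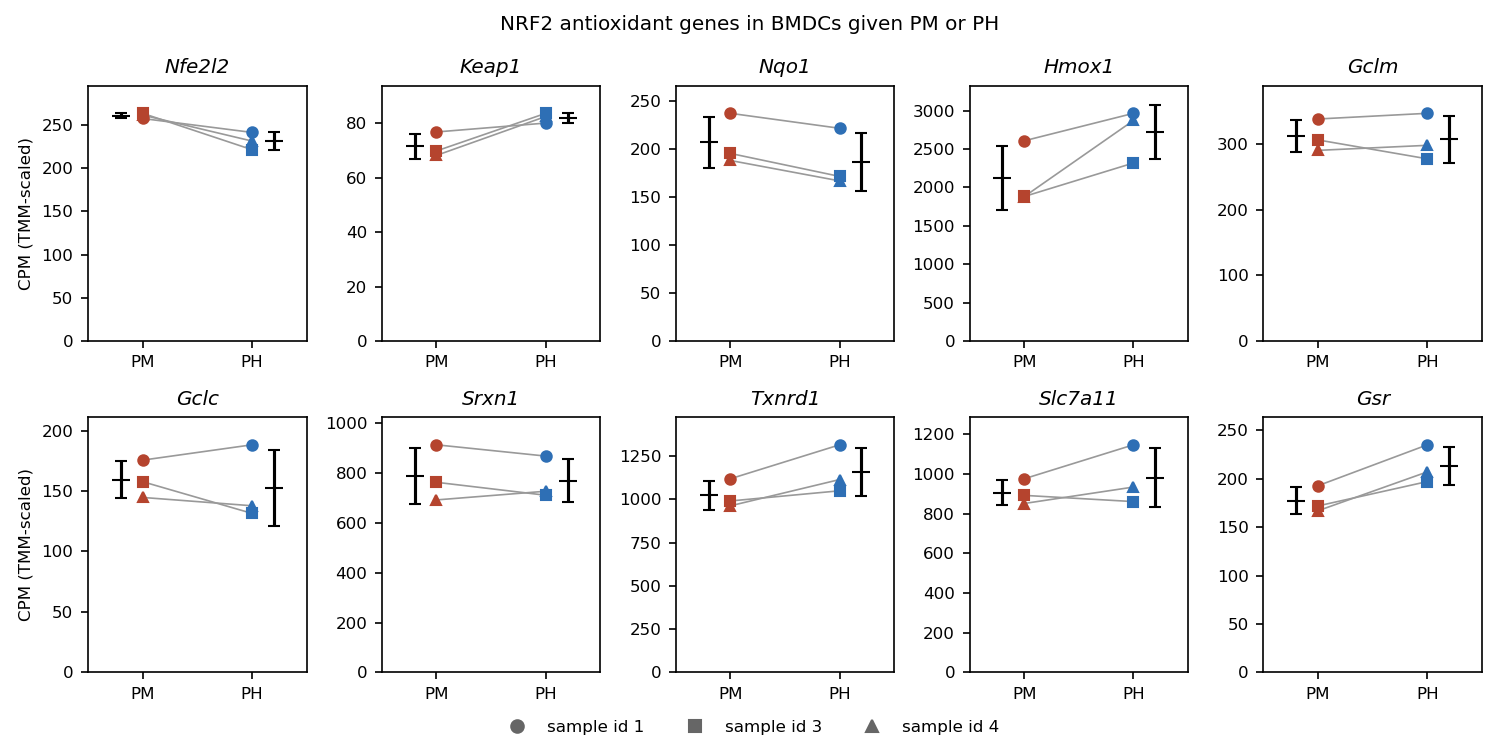
Level of each of the 10 genes (CPM on TMM-scaled libraries, y axis from 0) in each PM sample (red) and PH sample (blue), with lines joining samples of the same id and black bars giving mean and SD of 3 samples. Nfe2l2, Keap1 and Gsr have no overlap between PM and PH, and sample id 1 is highest within both treatments in the 8 target genes.

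Per kilobase of exon, Hmox1 was by far the highest of the 10 at 1353 ± 267 CPM per kb with PM and 1733 ± 223 with PH (SD, n = 3 each). The thioredoxin reductase gene Txnrd1 (251 ± 20.5 with PM, 285 ± 34.0 with PH, CPM per kb) and the sulfiredoxin gene Srxn1 (281 ± 40.2 with PM, 273 ± 30.7 with PH) came next, and within each treatment the levels of these 2 genes differed by less than the SD of Srxn1. Nqo1 followed at 133 ± 17.1 CPM per kb with PM and 120 ± 19.6 with PH. The transcription factor gene Nfe2l2 was at 105 ± 1.23 with PM and 93.6 ± 4.04 with PH, next to Slc7a11 at 92.0 ± 6.45 with PM and 99.5 ± 15.1 with PH, and these 2 changed places between the bacteria. Gsr, Gclm and Gclc lay between 44.6 and 79.7 CPM per kb. Keap1 was the lowest at 15.9 ± 1.02 CPM per kb with PM and 18.2 ± 0.406 with PH. Exon length here is the union of all annotated exons, so genes with many transcripts are understated on this scale.

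With the block, the regulator rose with PM and its inhibitor fell. Nfe2l2 (chromosome 2, 75675513 to 75704641, minus strand, GRCm38) was at 258, 264 and 262 CPM in PM replicates 1, 3 and 4, and at 242, 222 and 232 CPM in PH replicates 1, 3 and 4. Every PM sample was above every PH sample. The log2 fold change was 0.17 ± 0.06 (SE, adjusted p = 0.252 by edgeR), or 0.17 ± 0.05 with the block (adjusted p = 0.00927), which is 12.7% more transcript with PM. Keap1 (chromosome 9, 21229730 to 21239361, minus strand) was at 76.8, 69.8 and 68.2 CPM in PM replicates 1, 3 and 4, against 80.1, 83.7 and 82.5 CPM in PH replicates 1, 3 and 4. Every PM sample was below every PH sample, and the log2 fold change was -0.20 ± 0.06 (adjusted p = 0.194), or -0.20 ± 0.05 with the block (adjusted p = 0.00921). The log2 differences within pairs were -0.06, -0.26 and -0.27 for ids 1, 3 and 4. Exons of Keap1 share 11.3% of their bases with Gm16754 on the other strand, and the strand setting of the counting is not given. Of the 10 members, 3 had no overlap between PM and PH (Nfe2l2, Keap1 and Gsr), while 19.4% of all genes tested had none.

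Hmox1, heme oxygenase 1, which breaks heme into biliverdin, iron and carbon monoxide, had the largest difference of the 10. It lies on chromosome 8, 75093621 to 75100589, plus strand. Its level was 2607, 1881 and 1880 CPM in PM replicates 1, 3 and 4, against 2965, 2318 and 2872 CPM in PH replicates 1, 3 and 4. PM was lower in each pair, with log2 differences of -0.19, -0.30 and -0.61 for ids 1, 3 and 4, but PM replicate 1 was above PH replicate 3. The log2 fold change was -0.36 ± 0.15 (SE, adjusted p = 0.350 by edgeR), and with the block it was -0.37 ± 0.06 (adjusted p = 1.9e-04), a level lower by 22.4% with PM. The SE from the spread of its 3 pairs alone would be 0.127, beside 0.06 in the blocked fit and 0.15 in the fit without the block.

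Nqo1, the quinone reductase that is often read as a gauge of NRF2 activity, rose with PM in the blocked fit. It lies on chromosome 8, 107388225 to 107403206, minus strand. It was at 238, 196 and 188 CPM in PM replicates 1, 3 and 4, and at 222, 172 and 167 CPM in PH replicates 1, 3 and 4. The groups overlapped, since PH replicate 1 was above 2 of the PM samples, but PM was higher within each pair, by 0.10, 0.19 and 0.17 on the log2 scale for ids 1, 3 and 4. The log2 fold change was 0.15 ± 0.13 (SE, adjusted p = 0.697 by edgeR), or 0.15 ± 0.05 with the block (adjusted p = 0.0216). Nqo1 was the only one of the 8 target genes that rose with the block, while 3 fell.

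Of the reductases that use NADPH to recycle thiols, glutathione reductase and the cytosolic thioredoxin reductase fell with PM in the blocked fit only. The genes of the other thioredoxin reductases, Txnrd2 (-0.01 on the log2 scale with the block, edgeR adjusted p = 0.962) and Txnrd3 (0.15, adjusted p = 0.471), did not pass. Gsr, glutathione reductase (chromosome 8, 33653238 to 33698163, plus strand), was at 193, 172 and 167 CPM in PM replicates 1, 3 and 4, against 235, 197 and 207 CPM in PH replicates 1, 3 and 4. No PM sample reached the lowest PH sample. Its log2 fold change was -0.27 ± 0.09 (SE, adjusted p = 0.202 by edgeR), or -0.27 ± 0.05 with the block (adjusted p = 7.2e-05). Txnrd1, the cytosolic thioredoxin reductase (chromosome 10, 82833951 to 82897712, plus strand), was at 1119, 991 and 963 CPM in PM replicates 1, 3 and 4, against 1315, 1049 and 1114 CPM in PH replicates 1, 3 and 4. Its groups overlapped, with PM lower in each pair. Its log2 fold change was -0.18 ± 0.10 (adjusted p = 0.516), or -0.18 ± 0.05 with the block (adjusted p = 0.00926).

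The genes of glutathione supply did not pass in either fit. Gclc, the catalytic subunit of glutamate-cysteine ligase (chromosome 9, 77754535 to 77794485, plus strand), was at 176, 158 and 145 CPM in PM replicates 1, 3 and 4, and at 188, 132 and 138 CPM in PH replicates 1, 3 and 4. Gclm, its modifier subunit (chromosome 3, 122245557 to 122270732, plus strand), was at 339, 307 and 291 CPM in PM replicates 1, 3 and 4, and at 347, 278 and 299 CPM in PH replicates 1, 3 and 4. In both genes the pairs differed in direction, with PM lower in id 1 and higher in id 3. Slc7a11, the cystine importer that supplies cysteine (chromosome 3, 49892526 to 50443614, minus strand), was at 975, 892 and 851 CPM in PM replicates 1, 3 and 4, and at 1147, 861 and 934 CPM in PH replicates 1, 3 and 4. Srxn1, which repairs overoxidised peroxiredoxins (chromosome 2, 152105524 to 152111376, plus strand), was at 913, 763 and 692 CPM in PM replicates 1, 3 and 4, and at 868, 711 and 727 CPM in PH replicates 1, 3 and 4. The PM range lay within the PH range for Gclc and Gclm, the PH range within the PM range for Srxn1, and the ranges of Slc7a11 overlapped in part.

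For Gclc, Gclm, Srxn1 and Slc7a11, the SE from the spread of the 3 pairs alone would be 0.105, 0.060, 0.053 and 0.083. In the blocked fit it was 0.054, 0.048, 0.048 and 0.051 in that order. The 95% intervals of the blocked fit lean on the spread shared over genes, so they do not bound the differences these 4 genes could still hold. They were 0.973-fold to 1.13-fold for Gclc, 0.948-fold to 1.09-fold for Gclm, 0.957-fold to 1.10-fold for Srxn1 and 0.865-fold to 0.999-fold for Slc7a11 (adjusted p = 0.445, 0.841, 0.719 and 0.182 in that order, edgeR with the block). Without the block the interval was 0.843-fold to 1.29-fold for Gclc, the widest relative span of the 4. Over all 10 members, 2 were higher with PM in 3 of 3 pairs (23.8% of all genes) and 4 were lower in 3 of 3 (22.0% of all genes), and these are the 6 that passed with the block. The other 4 had pairs in both directions.

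**Figure D2:**
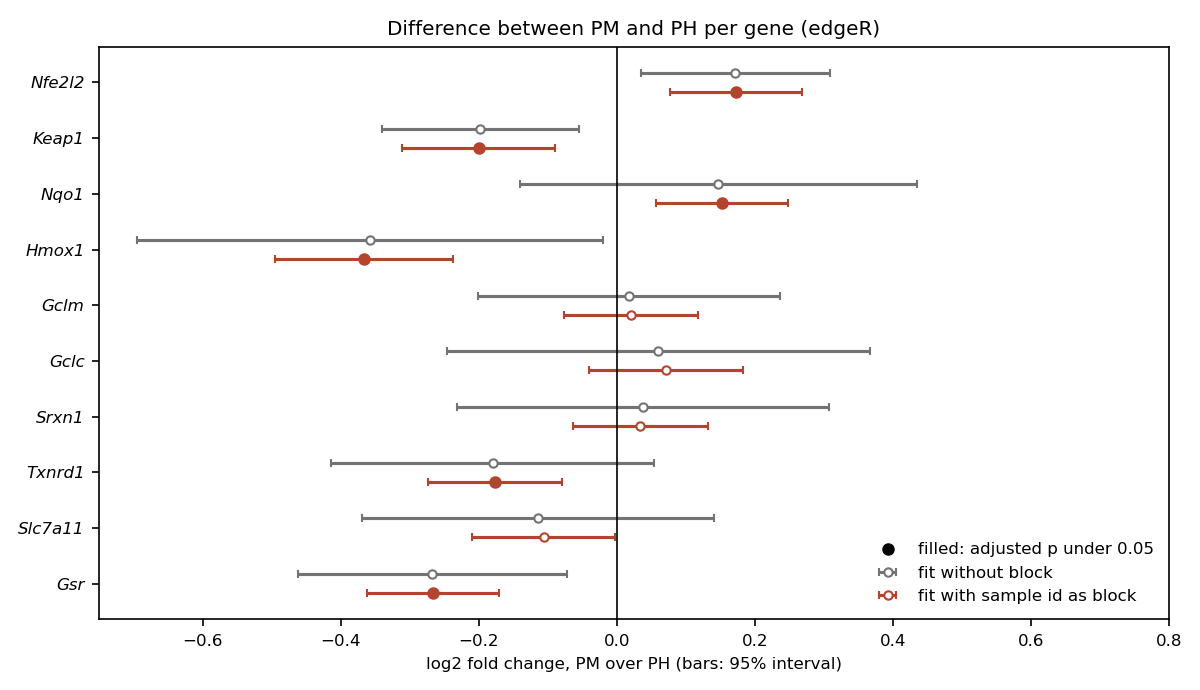
Log2 fold change of PM over PH (x axis) for each of the 10 genes in edgeR without a block (grey) and with the sample id as a block (red), with 95% intervals as bars and filled points where the adjusted p was under 0.05. None is filled without the block and 6 are filled with it, Nfe2l2 and Nqo1 above 0 and Keap1, Hmox1, Txnrd1 and Gsr below 0.

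The blocked calls differed in how much they leaned on single ids. Hmox1 and Gsr passed without each of the 3 ids in turn, with adjusted p up to 0.00167 for Hmox1 and 0.00473 for Gsr by edgeR, though Hmox1 was at -0.24 without id 4. With only 2 pairs left, such fits take nearly all of their error from the spread shared over genes. Nfe2l2 did not pass without id 3 (adjusted p = 0.241) or id 4 (0.0776), nor did Keap1 (0.111 and 0.208) or Nqo1 (0.241 and 0.189). Txnrd1 did not pass without id 4 (0.0898). Gclc passed as higher with PM without id 1 (adjusted p = 0.0185). In the fit without the block, Keap1 and Hmox1 passed when PM replicate 1 was left out (adjusted p = 0.0484 and 0.0392), and Hmox1 and Gsr when genes with low counts were kept (0.00199 and 0.0342). In replicate 4, the pair with run 1 libraries only, PM minus PH was 0.18 for Nfe2l2, -0.27 for Keap1, 0.17 for Nqo1, -0.61 for Hmox1, -0.21 for Txnrd1 and -0.31 for Gsr on the log2 scale. This pair is part of the blocked fit, so these values are no separate support for its calls.

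The 8 target genes also varied with the sample id. Replicate 1 was the highest sample within PM and the highest within PH for all 8 targets, while this held for 24.3% of all genes tested and for neither Nfe2l2 nor Keap1. Replicate 1 was lowest within both treatments for 0 of the 10 members (23.5% of all genes). Summed over the 8 targets, the level was 6559, 5359 and 5176 CPM in PM replicates 1, 3 and 4, against 7287, 5717 and 6458 CPM in PH replicates 1, 3 and 4. A test of the id in the blocked edgeR fit, added after these values were seen, passed 8 of the 10 members. It passed 18.9% of all genes, among them genes with far lower counts. The members that passed were the 8 targets, with adjusted p from 8.5e-06 for Nqo1 to 0.0104 for Gsr, while Nfe2l2 and Keap1 had 0.868 and 0.787. Between the highest and the lowest id, averaged over the bacteria, Hmox1 spanned 0.41, Nqo1 0.37, Gclc 0.36 and Srxn1 0.33 on the log2 scale, against 0.05 for Nfe2l2 and 0.06 for Keap1. This span was larger in size than the blocked difference between PM and PH in 7 of the 10 genes, a share close to the 73.1% of all genes above 0 in every sample, since a range over 3 ids is set beside a difference of 2 means.

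**Figure D3:**
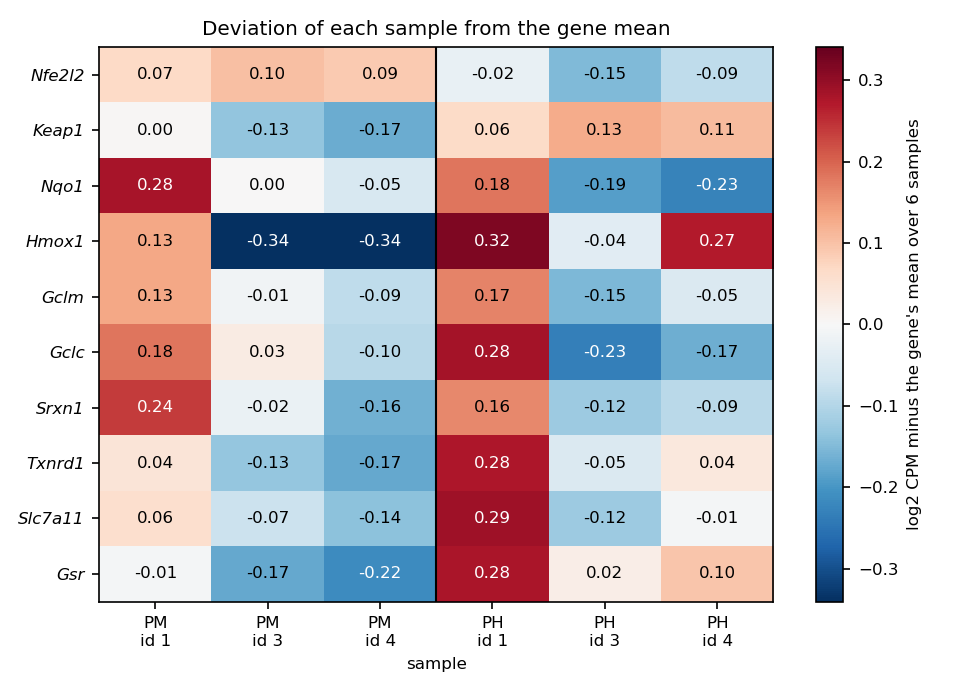
Log2 CPM of each gene in each sample minus the gene's mean over the 6 samples, with PM samples left of the black line and PH samples right of it. The columns of sample id 1 are above 0 for the 8 target genes in both treatments, with Gsr in PM replicate 1 at -0.01 as the exception. Nfe2l2, Keap1 and Gsr have no overlap between PM and PH, though Keap1 in PM replicate 1 is at 0.004, on the same side of 0 as the PH samples.

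Markers of cell types also moved with the id, and their part in the levels above was not tested. In bulk samples, fewer cells of a type and less RNA per cell cannot be told apart. The dendritic cell genes Zbtb46 and Ccr7 were present in every sample, at 59.4 to 81.4 CPM with PM and 66.8 to 84.4 CPM with PH for Zbtb46, while Cd209a had 0 counts. Of 12 dendritic cell markers tested, 9 were lowest in replicate 1 within both treatments (23.5% of all genes). Itgax was the 1 marker that was highest there (24.3% of all genes). It was at 178, 139 and 166 CPM in PM replicates 1, 3 and 4, and at 165, 133 and 158 CPM in PH replicates 1, 3 and 4. The 14 listed summed to 9314 CPM in PM replicate 1 against 10521 and 11156 in the other PM samples. With PH the sum was 9539 CPM in replicate 1 against 10697 and 11607 in the other samples. The sum of the 11 macrophage markers went the other way, at 1735 CPM in PM replicate 1 against 1256 and 1279. With PH it was 1567 CPM in replicate 1 against 1117 and 1233. Gene by gene this held in part. Of the 9 tested, 5 were highest in replicate 1 within both treatments and 1 was lowest. Most of the sum came from Adgre1, Csf1r and Cd68, at 609, 628 and 453 CPM in PM replicate 1. Between the bacteria the sums of both lists overlapped (1256 to 1735 CPM with PM and 1117 to 1567 CPM with PH for macrophage markers), though single markers differed, as given below. C1qa and C1qc had at most 4 and 10 counts in a sample, while C1qb, also on the list, passed the count filter. Monocyte markers summed to 5309 to 6787 CPM with PM and 4796 to 6547 CPM with PH, most of it Chil3 at 5108 to 6495 CPM with PM and 4521 to 6187 CPM with PH. For the marker counts that follow, the shares of all genes were 2.34% without the block (0.702% higher and 1.64% lower with PM) and 4.06% by DESeq2. With the block 7.00% rose and 8.27% fell. Of the 12 dendritic cell markers, 0 passed without the block (2 at an unadjusted p under 0.05, against 13.1% of all genes, and 1 by DESeq2), and 1 rose and 3 fell with it. Of 9 macrophage markers tested, 1 rose without the block, 3 rose and 2 fell with it, and 2 passed by DESeq2. Cd68, which rose with the block, was higher in every PM sample than in any PH sample. Its log2 fold change was 0.44 with the block (edgeR adjusted p = 6.2e-09, or 0.0973 without the block). Of 7 monocyte markers, 1 fell without the block and 5 with it, and 2 passed by DESeq2. Ly6c2 was at -0.64 with the block (edgeR adjusted p = 7.5e-12, or 0.161 without the block), which the monocyte sum does not show. Of 10 neutrophil markers, 1 fell without the block, 4 fell with it and 1 passed by DESeq2. Erythroid markers, of interest for a heme-degrading enzyme, summed to at most 4.01 CPM with PM and 4.23 CPM with PH.

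The wider pathway was followed in 9 lists of 119 genes, of which 115 were tested. Without the block 1 gene rose and 4 fell, which is 4.35% of them against 2.34% of all genes, and with the block 19 rose and 17 fell, 31.3% against 15.3%. Their median log2 fold change with the block was 0.02. Of the 36 called with the block, 18 passed without each id in turn, as did 2 of the 6 members and 48.1% of all genes called with the block. Replicate 1 was highest within both treatments for 67 of the 115 (58.3%, against 24.3% of all genes). For the list counts below, the shares of all genes were 2.34% without the block, 13.1% at an unadjusted p under 0.05 and 4.06% by DESeq2. With the block 15.3% of all genes passed, of which 7.00% rose and 8.27% fell as shares of all genes.

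Among 15 partners and regulators of NRF2, 0 passed without the block (2 at an unadjusted p under 0.05, and 1 by DESeq2). With the block 2 fell (13.3%, near the 15.3% of all genes that passed). These were Acod1, the enzyme that makes itaconate, an electrophile known to modify KEAP1, and Fbxw11, a ubiquitin ligase subunit. Acod1 was at 1679, 1267 and 1290 CPM in PM replicates 1, 3 and 4, against 2367, 1822 and 2011 CPM in PH replicates 1, 3 and 4, which is -0.55 ± 0.14 on the log2 scale (SE, edgeR adjusted p = 0.0873), or -0.55 ± 0.05 with the block (1.3e-10). DESeq2 passed Acod1 (adjusted p = 0.00199). Cul3, Mafg, Mafk, Bach1 and the KEAP1-binding autophagy receptor gene Sqstm1 did not pass in either fit, with log2 differences from -0.10 for Mafg to 0.09 for Mafk without the block.

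Of 25 genes of glutathione synthesis, use and export, 1 fell without the block, and 5 rose and 3 fell with it. The exporters of glutathione conjugates Abcc4 and Abcc1 were both lower with PM. Abcc4 averaged 74.5 ± 1.56 CPM with PM and 94.9 ± 2.44 CPM with PH (SD, n = 3 each), which is -0.35 ± 0.05 on the log2 scale (SE, edgeR adjusted p = 0.0110), and lost its call without PM replicate 3 or 4 or PH replicate 4 (0.0570 to 0.0881). Abcc1 (-0.30 with the block) and the glutaredoxin gene Glrx (-0.33) passed with the block only. The glutathione peroxidase genes Gpx1 (0.18) and Gpx4 (0.15) and the transferase genes Gsta4 (0.54), Gstm1 (0.17) and Gstp1 (0.20) rose with the block only. Of these 5, Gsta4 alone passed without each id. Without id 1, Gpx1 was at 0.12 (edgeR adjusted p = 0.0809), Gpx4 at 0.07 (0.378) and Gstp1 at 0.12 (0.268), and without id 3 Gstm1 (0.163), Gstp1 (0.127) and Gpx4 (adjusted p = 0.0748) did not pass. Of 12 thioredoxin and peroxiredoxin genes, 0 passed without the block (0 at an unadjusted p under 0.05 and 0 by DESeq2), and with it Prdx6 (0.26) and the mitochondrial Txn2 (0.15) rose and Txn1 (-0.15) fell. Prdx6 passed without each id, while Txn2 was at 0.09 without id 1 (adjusted p = 0.281) and Txn1 at -0.12 without id 3 (0.295), and neither passed without id 4 (0.224 and 0.109). Reads of transferase and peroxiredoxin genes could be split with near-identical copies, so single values there are uncertain.

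Of 16 detoxification genes, 0 passed without the block (4 at an unadjusted p under 0.05, 0 by DESeq2) and 4 rose with it, the reductase genes Ptgr1 (0.18), Nqo2 (0.28), Cbr3 (0.21) and Cbr1 (0.20). None of these 4 passed without each id in turn. Without id 1, Cbr3 was at 0.11 (edgeR adjusted p = 0.338), Cbr1 at 0.14 (0.281) and Nqo2 at 0.23 (0.0681), and without id 3 Ptgr1 was at 0.13 (0.251). Cbr3 (adjusted p = 0.0604) and Cbr1 (0.104) also did not pass without id 3, nor Cbr1 (0.130) and Nqo2 (0.140) without id 4. Of 9 heme and iron genes, 1 fell without the block, and 2 rose and 1 fell with it. Slc40a1, ferroportin, the iron exporter and a described NRF2 target, had the largest difference in these lists. It was at 55.5, 51.5 and 44.6 CPM in PM replicates 1, 3 and 4, against 131, 110 and 108 CPM in PH replicates 1, 3 and 4, so every PM sample was below every PH sample. Its log2 fold change was -1.21 ± 0.10 (SE, adjusted p = 7.6e-04 by edgeR). Biliverdin reductase A, Blvra (0.21), and the ferritin light chain gene Ftl1 (0.20), whose exons share 47.9% of their bases with other genes, rose with the block only, and neither passed without id 3 (adjusted p = 0.0695 for Blvra and 0.113 for Ftl1), nor Blvra without id 4 (0.0607). Of 7 NADPH-producing genes, 0 passed without the block (0 at an unadjusted p under 0.05, 0 by DESeq2). Pgls, of the pentose phosphate pathway, rose with it (0.24), which is 14.3% of the list, near the 15.3% of all genes. Without id 1, Pgls was at 0.12 and did not pass (edgeR adjusted p = 0.110).

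Of 13 other antioxidant and stress genes, 1 rose and 1 fell without the block, and 2 rose and 3 fell with it. Gdf15, a stress cytokine, was at 65.0 ± 3.90 CPM with PM and 40.2 ± 3.84 CPM with PH (SD, n = 3 each), which is 0.70 ± 0.08 on the log2 scale (SE, edgeR adjusted p = 0.00376). The scavenger receptor gene Marco, described as an NRF2 target in macrophages, was at 342 ± 24.7 CPM with PM and 571 ± 69.4 CPM with PH, a log2 fold change of -0.74 ± 0.10 (adjusted p = 0.00651). The scavenger receptor gene Cd36 (0.58), the mitochondrial superoxide dismutase gene Sod2 (-0.24) and the metallothionein gene Mt2 (-0.15, with 73.5% of its exon bases shared with Gm45774) passed with the block only. Cd36 and Sod2 passed without each id, and Mt2 was at -0.25 without id 1 (adjusted p = 7.1e-07) but did not pass without id 3 (0.243) or id 4 (-0.09, adjusted p = 0.484). The cytosolic superoxide dismutase gene Sod1 (-0.03) and the catalase gene Cat (-0.07) passed in neither fit. The log2 fold changes of Slc40a1 and Marco, and of Gdf15 and Cd36 in the other direction, were larger in size than that of any of the 10 members. This also held for further genes of the lists in both directions, and such differences between genes were not tested.

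**Figure D4:**
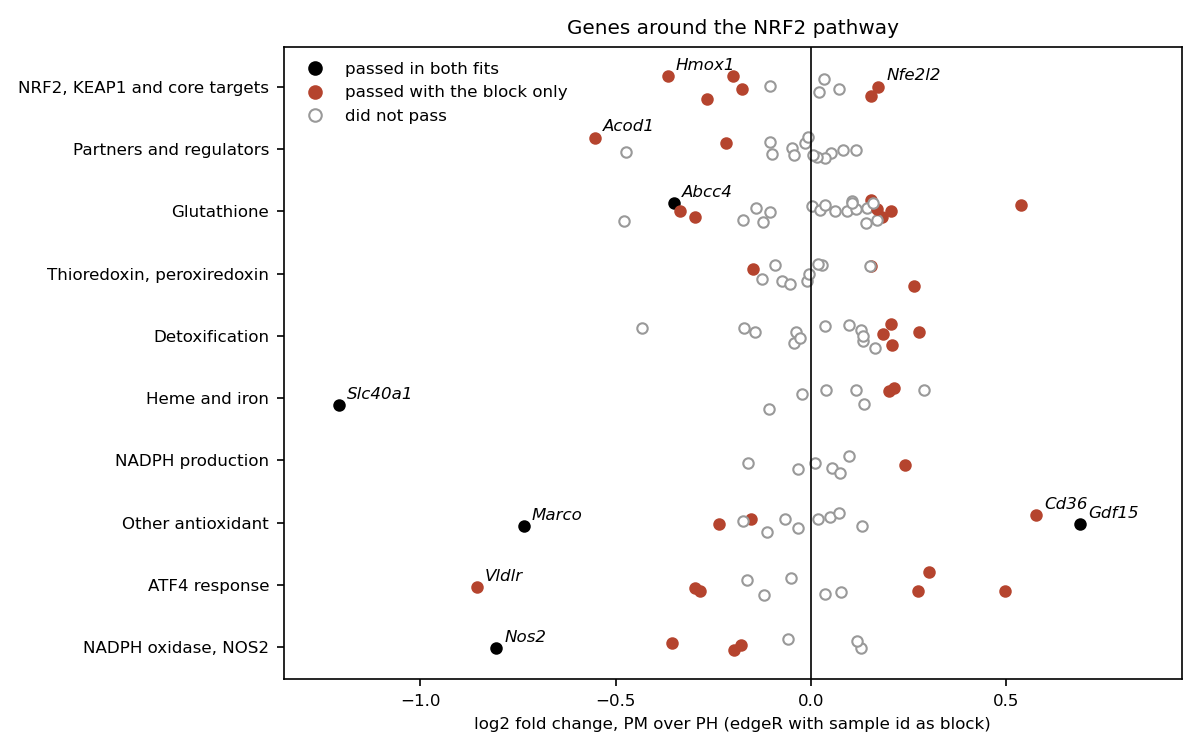
Log2 fold change of PM over PH in the blocked edgeR fit (x axis) for each tested gene of the members and of 9 lists around the pathway (rows, points spread within a row for visibility), black where a gene passed in both fits, red where it passed with the block only and white where it did not pass. The points lie on both sides of 0 in most rows, with Slc40a1 at -1.21, Nos2 at -0.81, Marco at -0.74 and Gdf15 at 0.69 farthest out among the black ones.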

How the data were processed

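The authors deposited whole-number read counts per gene, without normalization. The build GRCm38 and the tools featureCounts 1.6.4, STAR 2.5.3a and Trimmomatic are named in the submitters' processing notes. The annotation release, the strand setting, or whether the columns of PM replicate 1 and PH replicate 3 hold 1 run or both, was not given in the sources used here. Libraries were poly(A)-selected and strand-marking, per the labels' protocols. Counts of 14382 genes that passed filterByExpr (minimum count 10) were scaled by TMM and tested with edgeR 4.0.16 (R 4.3.3; glmQLFit with robust estimates, glmQLFTest), PM over PH, with no covariate and Benjamini-Hochberg adjustment at 0.05. SE was derived from the F value, and 95% intervals from SE and the fit's degrees of freedom. The code was tested on simulated data. Alternatives were the sample id as a block, RLE size factors, DESeq2 1.42.0, other low-count filters and leaving out samples.

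Deviations of log2 CPM (prior count 2) from treatment means correlated at 0.44, 0.32 and 0.24 between PM and PH samples of ids 1, 3 and 4, and at -0.35 to 0.07 between different ids. The samples were treated as paired by id in the blocked fits only, and the main fit left the id out. No 2 of the 6 columns agreed within sampling noise (chi-square per degree of freedom at least 4.99). CPM are on TMM-scaled libraries. The members and lists were chosen with earlier results of these data known. All 10 members were named, and from each list the genes that passed in either fit, at most 6 per direction. Cul3, Mafg, Mafk, Bach1, Sqstm1, Sod1, Cat and Atf4, which did not pass, were added for their role after their values were seen.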

Additional observations from a re-analysis of the deposited data

How the results depend on the processing

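Counts of calls depended most on the replicate block. Without it 337 genes, 0 members and 5 wider pathway genes passed, and with it 2197, 6 and 36 did. In the blocked fit without 1 id, the counts were 2145, 1580 and 1529 genes, 7, 3 and 2 members and 31, 25 and 30 wider genes, without ids 1, 3 and 4 in that order. In the fit without the block and without 1 sample, they were 142 to 417 genes, 0 to 2 members (2 without PM replicate 1) and 3 to 6 wider genes (3 without PM replicate 3, PM replicate 4 or PH replicate 4). With no low-count filter 846 genes, 2 members and 11 wider genes passed. DESeq2 passed 584 genes, 0 members and 7 wider genes. RLE size factors and a filter of 1 CPM gave 339 and 335 genes, with 0 members and 5 wider genes each.

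Of 644 values of the 46 named genes under alternatives, 498 kept their direction and side of the threshold, 126 came to pass, 6 ceased to pass and 14 changed sign. Of the 126, 37 were in the blocked fit, and 30, 21 and 25 in the blocked fits without ids 1, 3 and 4. The wider genes were named because they passed in either fit, so this part of the tally was largely fixed by the choice of genes. The sign changes were in Gclm, Gclc, Srxn1 and Slc7a11, which passed in neither fit, and in Ptgr1, which was at 0.18 and passed with the block only. Leaving out 1 sample, the log2 fold change ranged from -0.056 (without PH replicate 3) to 0.11 for Gclm, from -0.039 (without PH replicate 3) to 0.23 for Gclc, from -0.088 (without PM replicate 1) to 0.13 for Srxn1, from -0.034 (without PM replicate 1) to 0.39 for Ptgr1 and from -0.21 to 0.0061 (without PH replicate 1) for Slc7a11. Gclm, Gclc and Srxn1 were below 0 without PM replicate 1, PH replicate 3 or PH replicate 4. In the blocked fit without id 3 they were at -0.043, -0.020 and -0.0052. The 6 lost calls were those of Abcc4 and Nos2 without PM replicate 3, PM replicate 4 or PH replicate 4. The cause of these changes was not tested, beyond the fewer samples of such fits.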

Other observations

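The genes that make oxidants, against which the NRF2 targets act, were lower with PM in part. Of 7 tested genes of NADPH oxidase and nitric oxide synthase, 1 fell without the block and 4 fell with it. Of all genes tested, 1.64% fell without the block and 8.27% with it. Nos2, inducible nitric oxide synthase, was at 460, 360 and 344 CPM in PM replicates 1, 3 and 4, against 760, 595 and 669 CPM in PH replicates 1, 3 and 4, which is -0.80 ± 0.13 on the log2 scale (SE, edgeR adjusted p = 0.0141). It lost its call without PM replicate 3 or 4 or PH replicate 4 (adjusted p 0.0718 to 0.0786). The oxidase subunit genes Cybb (-0.36 with the block), Rac2 (-0.20) and Ncf1 (-0.18) passed with the block only, and without id 3 Rac2 and Ncf1 did not pass (adjusted p = 0.0594 and 0.0507). Rac2 also failed without id 4 (adjusted p = 0.0776). Nox4, Duox1 and Duox2 had 0 counts in every sample.

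ATF4, the factor of the amino acid response, also acts on Slc7a11. Of 11 genes of its list, 0 passed without the block (2.34% of all genes), with 6 at an unadjusted p under 0.05 (13.1% of all genes). DESeq2 passed 1, Trib3 (adjusted p = 0.0218), against 4.06% of all genes. With the block 3 of the list rose and 3 fell, against 7.00% and 8.27% of all genes. Those that rose were the pseudokinase gene Trib3 (0.50), Ddit3, which encodes CHOP (0.30), and Asns, asparagine synthetase (0.27). Those that fell were Ddit4 (-0.30), Vldlr (-0.86) and Phgdh (-0.28), the first enzyme of serine synthesis. Atf4 itself was at 0.08 with the block and passed in neither fit. Asns did not pass without id 4 (adjusted p = 0.152) nor Phgdh without id 3 (0.206), while Trib3, Ddit3, Ddit4 and Vldlr passed without each id. Replicate 1 was highest within both treatments for 1 of these 11 genes (24.3% of all genes tested) and lowest for 5 (23.5% of all genes), and a difference from other genes was not tested.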
